A study of Homo sapiens with 6 samples.

Results

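SLAMF9, LAIR2 and LINC01173 are 3 of the 34036 genes in a count table of HepG2 cells, a human line derived from a hepatocellular carcinoma. They were chosen by their counts in these same libraries, low in siCON and high in siDGk, with no numeric limit set. Their change between the groups is therefore described here and not tested. Of the 34036 genes, 24670 had at least 1 count, and 14476, the 3 among them, had counts high enough to be tested.

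RNA labelled as poly(A) was sequenced from cells harvested 48 h after transfection with RNAiMAX. The 3 siDGk cultures received a siGENOME pool against DGUOK, the mitochondrial deoxyguanosine kinase, and the 3 siCON cultures a non-targeting siRNA. All cultures were of this 1 line. The sample titles separate the groups, whereas the treatment entry of every sample names the control. Total counts on genes were 19065684, 18915508 and 10527216 in siCON replicates 1, 2 and 3, and 18613138, 15978314 and 21334876 in siDGk replicates 1, 2 and 3.

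The titles were checked on the targeted gene. DGUOK (ENSG00000114956.19) had 1019, 997 and 506 counts in the siCON libraries and 168, 171 and 146 in the siDGk libraries. Each siDGk library thus held less DGUOK RNA than any siCON library. The log2 fold change, siDGk against siCON, was −2.57 with a standard error (SE) of 0.19.

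SLAM receptors are surface proteins of the immunoglobulin superfamily that leukocytes use to sense each other, mostly by binding a copy of the same receptor on the next cell. Most of them signal through tyrosine motifs that recruit SAP adaptors and kinases such as FYN, but the cytoplasmic tail of SLAMF9 lacks these motifs, and its RNA is best known from macrophages and dendritic cells. LAIR2 is a secreted relative of LAIR1, an inhibitory receptor on leukocytes that binds collagen. LAIR2 binds the same ligands and can compete with LAIR1 for them. LINC01173 is annotated as a long non-coding RNA. Neither receptor is among the transcripts by which hepatocytes are recognized.

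The 3 genes lie on different chromosomes of GRCh38. SLAMF9 (ENSG00000162723.9) is a protein-coding gene on the minus strand of chr1:159951492-159954237, with 4 annotated transcripts of up to 4 exons. LAIR2 (ENSG00000167618.9) is a protein-coding gene on the plus strand of chr19:54497879-54510687, with 4 transcripts of up to 5 exons. LINC01173 (ENSG00000280744.1) has 1 transcript of 3 exons on the plus strand of chr2:234682668-234717764. No other annotated gene overlapped any of the 3, so the unstranded counting leaves no antisense partner to confuse them with. In a search for shared stretches of 50 bases, SLAMF9 and LINC01173 shared 0% of theirs with any other gene. LAIR2 shared 27.2% of its 1089 stretches, all with LAIR1, its close copy. Reads from that portion may align to both genes and be left out, so LAIR2 counts can be too low in every library.

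Promoters were available for 2 of the 3 genes, SLAMF9 and LINC01173, from RefSeq on GRCh38.p14. They are shown because these genes were high together in the siDGk libraries. Each runs from 250 bases before the transcription start to 50 after it. That of SLAMF9 is chr1:159954188-159954487 on the minus strand, and that of LINC01173 is chr2:234682418-234682717 on the plus strand. Capitals mark matches to TGANTCA, the motif that AP-1 factors bind.
SLAMF9: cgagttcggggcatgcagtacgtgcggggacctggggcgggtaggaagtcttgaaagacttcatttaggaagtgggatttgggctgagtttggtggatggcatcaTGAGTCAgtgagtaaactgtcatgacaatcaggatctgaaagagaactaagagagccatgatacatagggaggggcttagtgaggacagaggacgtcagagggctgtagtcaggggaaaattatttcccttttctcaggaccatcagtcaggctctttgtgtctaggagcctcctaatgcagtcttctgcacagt
LINC01173: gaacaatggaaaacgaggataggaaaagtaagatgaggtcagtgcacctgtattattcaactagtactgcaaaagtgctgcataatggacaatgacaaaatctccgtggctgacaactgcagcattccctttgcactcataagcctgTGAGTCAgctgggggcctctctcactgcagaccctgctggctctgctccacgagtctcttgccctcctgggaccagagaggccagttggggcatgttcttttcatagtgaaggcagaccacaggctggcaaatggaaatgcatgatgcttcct
Both windows held the same AP-1 match, TGAGTCA. Its first base lay at position −145 in SLAMF9 and −103 in LINC01173, where −1 is the base just before the start. The motif reads almost the same on both strands, and both were searched. It was present in 7.76% of all 27305 promoters of this length. Among promoters of genes tested the share was 4.71%, among those called higher 8.08% and among those called lower 3.7%.

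Other common motifs were looked for in the same windows, on both strands. Neither held the cAMP response element TGACGTCA (1.98% of all promoters), the STAT site TTCNNNGAA (7.88%) or the TATA box TATAAA (12%). The core of interferon regulatory factor sites, AANNGAAA, stood in 23.2% of all promoters, at −22 in SLAMF9 and at −246 and 28 in LINC01173. The E-box CANNTG, found in 68.9% of all promoters, was absent from the SLAMF9 window and had 5 matches in that of LINC01173. The one at −98 overlapped the end of the AP-1 match, and the one at 26 overlapped the AANNGAAA match at 28. Both windows were poor in CpG, with 6 in SLAMF9 and 3 in LINC01173 against a median of 14. Of all promoters, 37.5% had as few as SLAMF9 and 25.3% as few as LINC01173. The shares of these motifs also differed between promoters of genes called higher and lower. They were 3.79% and 1.23% for the cAMP response element, 7.7% and 5.9% for the STAT site and 7.2% and 6.45% for the TATA box. For AANNGAAA they were 13.8% and 19.3%, and for the E-box 60.5% and 64.2%. None of these differences was tested. All of these are matches of letters, and binding was not measured.

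SLAMF9 had 0, 0 and 1 counts in siCON replicates 1, 2 and 3, and 682, 482 and 778 in siDGk replicates 1, 2 and 3. Scaled by library size to CPM, these were 0, 0 and 0.0953 in siCON and 36.8, 29.7 and 35.8 in siDGk libraries. The groups were far apart: siCON values lay under the level of 3 counts, which is 0.16 CPM in replicates 1 and 2 and 0.286 CPM in replicate 3, and all siDGk values lay close together. Group means were 0.0318 ± 0.055 and 34.1 ± 3.88 CPM (SD, n = 3). Over the summed counts, 1 against 1942, the depth-adjusted ratio was 1650 with a 95% counting interval from 295.7 to 65186. With a single siCON count the ratio is uncertain over that wide range, while the siDGk level itself varied by only 11.4% (coefficient of variation). The fitted log2 fold change was 10.24 (SE 0.48). Without siCON replicate 3, which held the single count, it was 12.33. DESeq2's shrinkage brought it to 4.93.

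LAIR2 had 91, 119 and 68 counts in siCON replicates 1, 2 and 3, and 1933, 2516 and 3491 in siDGk replicates 1, 2 and 3. Its levels were 4.86, 6.34 and 6.48 CPM in siCON and 104.4, 154.9 and 160.6 CPM in siDGk libraries. The groups did not overlap, and the lowest siDGk library was 16.1 times the highest siCON library. LAIR2 was clearly present in all siCON libraries, so its RNA was not close to silent there and "switched on" is too strong a name for it. Group means were 5.89 ± 0.898 and 140 ± 30.9 CPM (SD, n = 3). The depth-adjusted ratio of summed counts was 24.3 (95% counting interval 21.5 to 27.4), and the log2 fold change was 4.58 (SE 0.18). Within the siDGk group, replicate 1 was lower than the others.

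LINC01173 had 37, 22 and 0 counts in siCON replicates 1, 2 and 3, and 381, 533 and 667 in siDGk replicates 1, 2 and 3. This gave 1.98, 1.17 and 0 CPM in siCON and 20.6, 32.8 and 30.7 CPM in siDGk libraries. The groups did not overlap, but the siCON libraries differed among themselves: the RNA was detected in replicates 1 and 2 and not in replicate 3, the shallowest library. A count of 0 there allows up to 0.286 CPM, which is below the level in the other two. Mean levels were 1.05 ± 0.994 and 28 ± 6.53 CPM (SD, n = 3), and the lowest siDGk library was 10.4 times the highest siCON library. The depth-adjusted ratio of summed counts was 22.8 (95% counting interval 17.6 to 30). The log2 fold change was 4.59 (SE 0.50), and DESeq2's shrinkage reduced it to 0.58. The counting intervals cover the sampling of reads only and not differences between cultures.

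**Figure D1:**
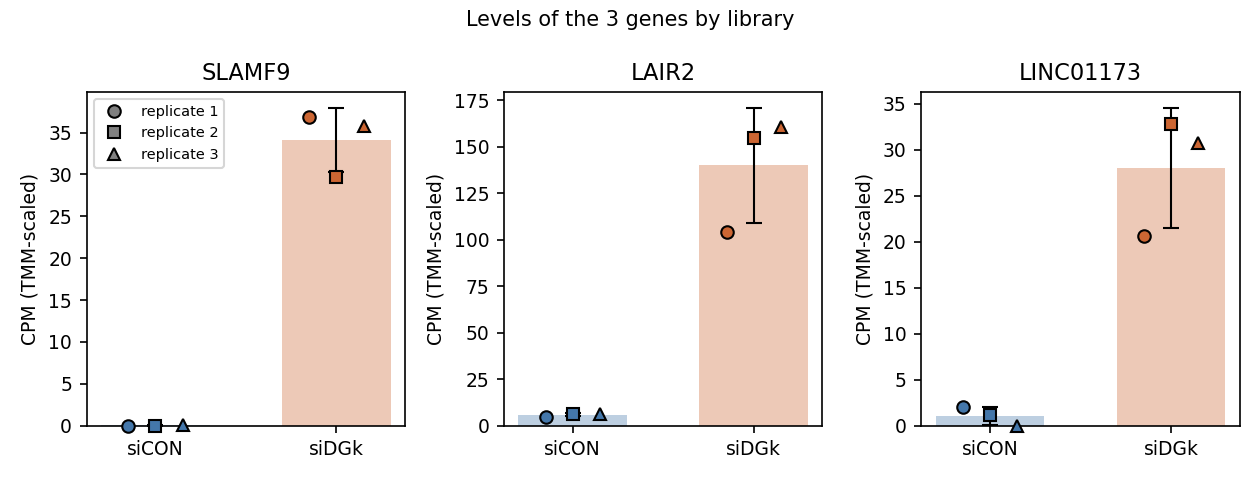
Levels of SLAMF9, LAIR2 and LINC01173 in each library, in CPM with TMM-scaled library sizes; bars are means and error bars SD over 3 libraries. SLAMF9 lies at or near 0 in siCON, LAIR2 lies between 4.86 and 6.48 CPM, and LINC01173 between 0 and 1.98 CPM, all below their siDGk values.

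Divided by exon length, the levels can be compared between genes. In siCON libraries the order was LAIR2 at 5.65, LINC01173 at 3.17 and SLAMF9 at 0.0279 CPM per kb. The first of these did not clearly separate from the second, since siCON replicate 1 held 4.66 CPM per kb of LAIR2 and 5.97 of LINC01173. In siDGk libraries the order was the same, at 134.1, 84.7 and 29.9 CPM per kb. Here each library kept the order, with LAIR2 from 100 to 153.8, LINC01173 from 62.2 to 99.1 and SLAMF9 from 26 to 32.4 CPM per kb. Among the genes tested, the level per length of SLAMF9 stood at percentile 0.681 in siCON and 90.6 in siDGk libraries. LAIR2 went from percentile 60.3 to 98.3 and LINC01173 from 45.8 to 97. These places follow in part from the choice of the genes by low siCON and high siDGk counts, and nothing more is read from them. The library that was lowest within siDGk also differed, replicate 2 for SLAMF9 and replicate 1 for LAIR2 and LINC01173.

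Across the transcriptome, calls needed an adjusted p under 0.05 in edgeR's quasi-likelihood test and a log2 fold change above 0.5 in size. This rule called 2041 of 14476 genes (14.1%), 1074 higher (7.42%) and 967 lower (6.68%) in siDGk libraries. All 3 genes were called higher, and all 3 had every siDGk library above every siCON library, as did 2702 genes tested (18.7%). Nothing is read from this, because the contrast itself chose them. In edgeR's fit SLAMF9 had the largest log2 fold change of all genes tested, and LINC01173 and LAIR2 ranked 61 and 63. Changes of this size were mostly upward: 70 called genes had a log2 fold change above 4, and 17 were below −4.

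A stricter description of off-to-on is under 1 CPM in every siCON library and at least 1 CPM in every siDGk library. It was met by 115 of the 24670 genes with a count (0.466%), and of the 3 genes only by SLAMF9. The mirror pattern, from on to off, was met by 56 genes (0.227%). Both counts depend on the limits and on single libraries. They were 12 and 3 at under 0.5 against at least 2 CPM, and 155 to 226 and 82 to 114 with 1 library left out, where fewer libraries must meet the limits. Ordered by mean siDGk CPM, not corrected for gene length, SLAMF9 came first of the 115 at 34.1 CPM. EPHB1, an ephrin receptor tyrosine kinase, followed at 25 CPM. The next were MYBPH at 12.7, CDCP1 at 11.4, MYH16 at 9.58 and CD79A at 7.91 CPM. RASA3 at 6.74, KCNQ5 at 6.59, AC018629.1 at 6.37 and ADRA1D at 6.14 CPM completed the first 10. Among them are the genes of a myosin-binding protein (MYBPH), a potassium channel (KCNQ5) and an adrenergic receptor (ADRA1D). In the mirror direction, HABP2 had a siCON mean of 16.6 CPM and F13B, which encodes a subunit of clotting factor XIII, one of 8.8 CPM. MYO1A, TMC4 and HS6ST2 followed at 6.88, 5.15 and 4.74 CPM. The AP-1 motif stood in 13 of 66 off-to-on promoters (19.7%), that of SLAMF9 among them, and in 4 of 37 mirror promoters (10.8%). Its share was 7.76% over all promoters and 4.71% among those of genes tested. The TATA box stood in 15.2% of off-to-on and 8.11% of mirror promoters, against 12% of all and 5.53% of tested ones. Other motifs were less frequent in off-to-on than in mirror promoters. AANNGAAA stood in 21.2% and 32.4% (16.1% of tested ones), the E-box in 66.7% and 73% (60.3%). The STAT site stood in 3.03% and 5.41% (6.34%). The cAMP response element stood in 1.52% of off-to-on and 0% of mirror promoters (3.24% of tested ones). These shares are descriptions, and their differences were not tested.

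**Figure D2:**
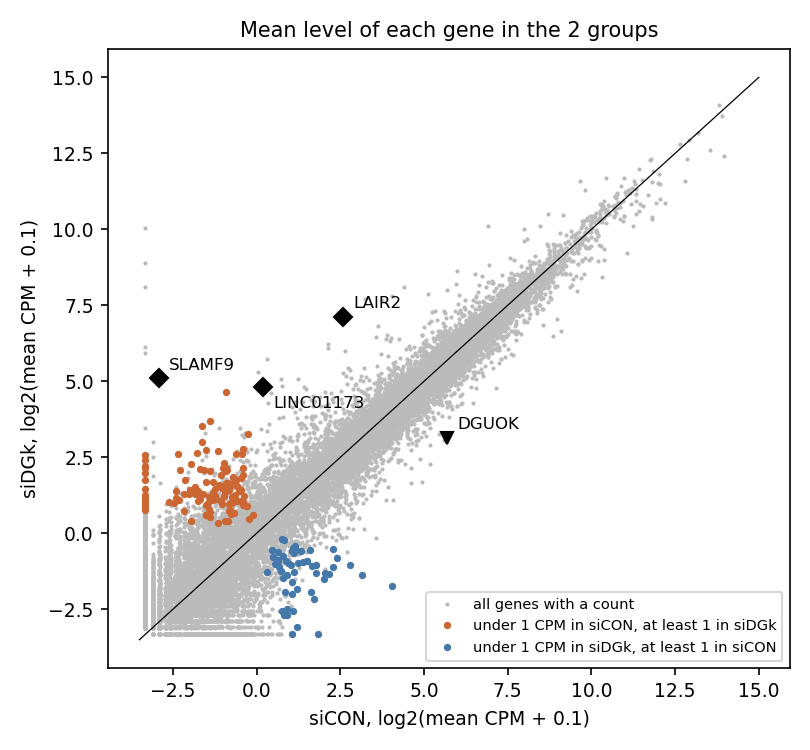
Mean level of each of the 24670 genes with a count, siCON on the x axis and siDGk on the y axis, as log2 of CPM plus 0.1, with a line of equal levels. Coloured points are the 115 off-to-on and the 56 mirror genes; SLAMF9 lies highest among the off-to-on points, while LAIR2 and LINC01173 lie to the right of them.

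The neighbours of each gene were examined because position played no part in the choice. Within 500 kb of the 3 genes lay 83 other genes, of which 61 had a count and 31 were tested. Of these, 4 were called higher and 2 lower, with a median log2 fold change of 0.25 against 0.02 over all genes tested. Within 100 kb, 9 were tested, of which 3 were called, all higher. Over all genes tested 14.1% were called, 7.42% higher and 6.68% lower, and with so few neighbours no difference from these shares is claimed.

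Around SLAMF9, 11 of 31 neighbours were tested and 2 were called, both higher. KCNJ10, which encodes an inward-rectifier potassium channel, lies 44.4 kb away. It had 262, 211 and 149 counts in siCON and 940, 936 and 1519 in siDGk libraries. Its log2 fold change was 2.18 (SE 0.17, adjusted p = 4.40e-08 in edgeR's test), with all siDGk libraries above all siCON libraries. The span of KCNJ10 contains PIGM on the same strand, whose log2 fold change was 0.25 (SE 0.22), and reads in shared stretches can be lost. PEA15, which encodes a phosphoprotein that binds ERK, lies 251 kb away and rose by a log2 fold change of 0.79 (SE 0.13, adjusted p = 0.000184 in edgeR's test). On the other side, the nearest gene tested was TAGLN2, an actin-binding protein gene 26 kb away. Its log2 fold change of 0.49 (SE 0.10, adjusted p = 0.0021 in edgeR's test) lay just under the 0.5 limit. In the opposite direction NCSTN, which encodes nicastrin and lies 389 kb away, also stayed under it at −0.47 (SE 0.09, adjusted p = 0.00118 in edgeR's test), with all siDGk libraries below all siCON libraries. NCSTN was called lower without siDGk replicate 2 or 3, and TAGLN2 higher without siCON replicate 2. Closer genes were nearly silent in both groups. LINC01133, 3.8 kb away, had 5 counts in 1 siCON library, and IGSF9, 5.88 kb away, had 15 counts in 1 siDGk library. SLAMF8, the nearest SLAM gene at 114 kb, had 1 count in all 6 libraries together. KCNJ10 and TAGLN2, the nearest genes tested on each side, thus had every siDGk library above every siCON library, as 18.7% of all genes tested did, with smaller changes than SLAMF9.

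Around LAIR2, 18 of 46 neighbours were tested, 2 of them called higher and 2 lower. LILRA2, an activating leukocyte receptor, was the nearest gene tested on the telomeric side, at 62.2 kb. It had 27, 50 and 19 counts in siCON and 320, 340 and 326 in siDGk libraries. Its log2 fold change was 3.16 (SE 0.33, adjusted p = 1.18e-06 in edgeR's test), with no overlap between groups. LILRA2 shares 18.5% of its 50-base stretches with other genes, so its counts are uncertain. On the other side, CDC42EP5 at 24.6 kb had a log2 fold change of 0.31 (SE 0.51) and was not called. LENG8, 35.9 kb away, was called at 0.61 (SE 0.17, adjusted p = 0.0131 in edgeR's test). It overlaps 2 genes on the opposite strand, and its call did not hold when replicate 2 of siCON (0.51) or of siDGk (0.55) was left out. The lower genes lie farther off, TMC4 at 325 kb and MBOAT7 at 308 kb. TMC4 fell by 3.45 on the log2 scale (SE 0.96, adjusted p = 0.0147 in edgeR's test), a call lost without siCON replicate 1 (−3.12) or 3 (−3.19). MBOAT7, a lysophosphatidylinositol acyltransferase, fell by 0.51 (SE 0.15, adjusted p = 0.0206 in edgeR's test). Its call did not hold when replicate 1 or 2 of siCON (−0.44, −0.45) or replicate 2 of siDGk (−0.41) was left out. KIR3DX1, the 1 gene between LAIR2 and LILRA2, had too few counts to be tested.

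Around LINC01173, only 2 of 6 neighbours were tested, and edgeR called 0 of them, with 0 at an unadjusted p under 0.05. DESeq2 also called 0, with 1 at an unadjusted p under 0.05. SH3BP4, 234 kb away, had a log2 fold change of 0.07 (SE 0.09) at 206 ± 5.75 CPM in siCON and 216.7 ± 23.2 CPM in siDGk libraries (SD, n = 3).

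**Figure D3:**
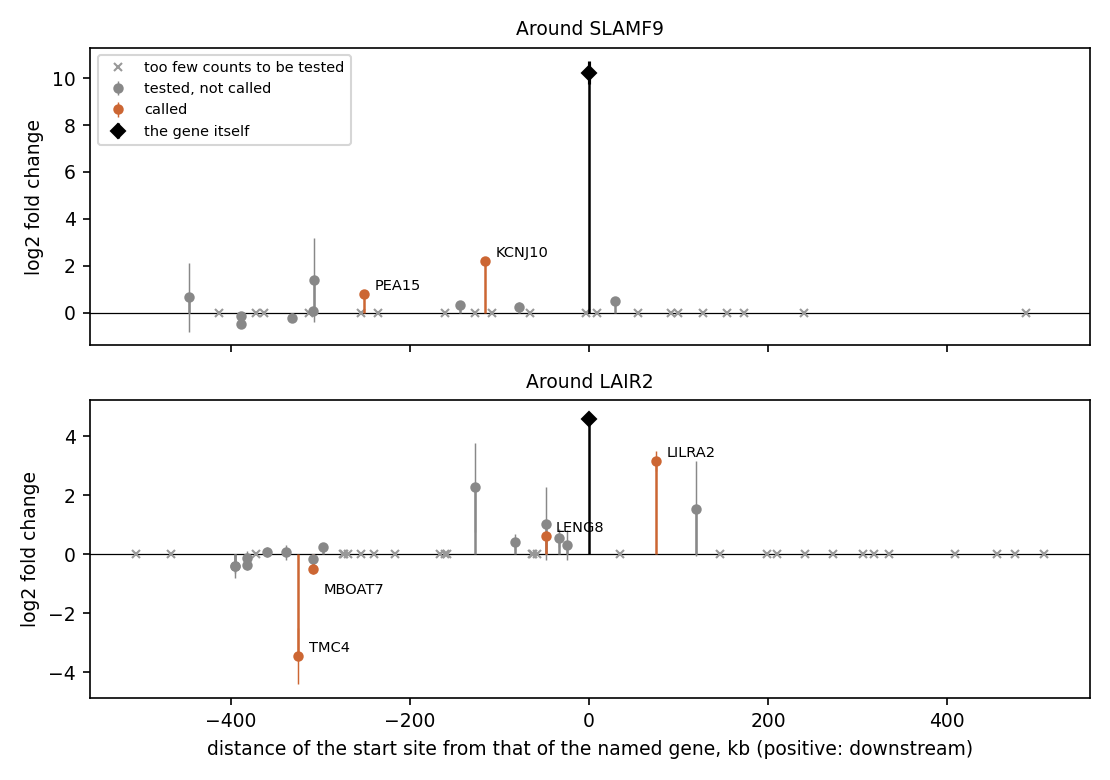
Log2 fold change, siDGk against siCON, of genes around SLAMF9 and LAIR2, by the distance in kb of their start from that of the named gene along its strand; bars are SEs. Crosses on the zero line are genes with too few counts to be tested. Among the neighbours called, TMC4 at −3.45, LILRA2 at 3.16 and KCNJ10 at 2.18 changed most; SLAMF9 is at 10.24 and LAIR2 at 4.58.

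No other SLAM receptor had enough counts to be tested. Of 14 receptors, adaptors and signalling partners, 4 were tested and 1, FYN, was called, where 14.1% of all genes tested were. FYN, the kinase that SAP recruits, rose from 30.2 ± 3.58 to 68 ± 7.95 CPM (SD, n = 3), a log2 fold change of 1.17 (SE 0.14, adjusted p = 8.83e-06 in edgeR's test). The phosphatase genes PTPN6, PTPN11 and INPP5D had log2 fold changes of 0.17, −0.10 and 0.27 and were not called. The median of the 4 was 0.22. The other receptors had few counts. CD244 and the SAP family adaptors SH2D1A and SH2D1B had 0 counts in all 6 libraries. SLAMF1 had 10 and 31 counts in siDGk replicates 1 and 2 and 0 elsewhere, SLAMF7 had 7 counts in siCON replicate 2 and 17 in siDGk replicate 2, and CD48 had 50 counts in siDGk replicate 2 and at most 21 elsewhere. SLAMF9 was thus the 1 receptor of its family with a substantial level, in libraries with 0 counts of either SAP adaptor.

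Of 24 further genes of the leukocyte receptor complex, the cluster of immunoglobulin-like receptors that holds LAIR2, 17 were in the table and 4 were tested. Only LILRA2 was called (14.1% over all genes tested), and 6 had 0 counts in all libraries. The median log2 fold change of the 4 was 1.91, against 0.02 over all genes tested. LAIR1 passed the count filter only through its siDGk libraries, which favours a positive value. LILRB1 had at most 7 counts in siCON and 35 in siDGk libraries, and LILRA2 was already counted among the neighbours of LAIR2. No change of the group as a whole is therefore read from this median. LAIR1, the membrane-bound counterpart of LAIR2, had 6, 5 and 0 counts in siCON and 17, 26 and 12 in siDGk libraries. These low counts did not overlap between groups, but the log2 fold change of 2.27 (SE 1.5) did not pass edgeR's test (adjusted p = 0.347). The stretches that LAIR1 and LAIR2 share can lower the counts of both.

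The ligands that LAIR1 and LAIR2 bind, collagens and proteins with collagen-like domains, changed in both directions. Of 25 listed, 22 were in the table and 14 were tested, with 1 called higher and 5 lower and a median of −0.12, against 7.42% higher and 6.68% lower over all genes tested. Without the count filter, 6 were called higher and 5 lower. COL1A1, which encodes a chain of type I collagen, rose from 1.17 ± 0.752 to 19.4 ± 1.75 CPM (SD, n = 3). Its log2 fold change was 4.04 (SE 0.39, adjusted p = 5.94e-07 in edgeR's test). COL18A1, which gave most of the summed CPM of the list, fell from 973.3 ± 26.5 to 670.7 ± 42.6 CPM (SD, n = 3), by 0.54 on the log2 scale (SE 0.07, adjusted p = 2.13e-05 in edgeR's test). COL4A5 fell by 0.77, COL6A1 by 1.31, the lectin gene MBL2 by 0.92 and COL2A1 by 1.58. The call of COL2A1 was lost without siCON replicate 2 (−1.41). The summed level of the list was 1394, 1383 and 1401 CPM in siCON and 1072, 1013 and 946.9 CPM in siDGk libraries.

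Several collagen genes were high in only 2 of the siDGk libraries. COL1A2 had 124 and 169 counts in siDGk replicates 1 and 2, COL4A1 had 108 and 166, and COL6A3 had 119 and 153, while all 3 had 0 in siDGk replicate 3, the deepest library. Without that library, 12 of the list were called, 7 higher and 5 lower. COL1A2, COL3A1, COL4A1, COL4A2, COL5A1 and COL6A3 were the added ones.

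Because SLAMF9 and LAIR2 are best known from leukocytes, markers of other cell types were examined in the same libraries. For comparison with the counts of calls below, 7.42% of all genes tested were called higher and 6.68% lower. Of 10 myeloid markers in the table, 5 were tested and edgeR called 0, with 0 at an unadjusted p under 0.05. DESeq2 without a filter had 3 at an unadjusted p under 0.05, PTPRC, CSF1R and CD163, and called 1, CD163, which had 9, 23 and 8 counts in siCON and 0 in all siDGk libraries. PTPRC, the gene of the common leukocyte antigen CD45, had 9, 55 and 2 counts in siCON and 37, 129 and 58 in siDGk libraries. Its log2 fold change in edgeR was 1.76 (SE 0.84, adjusted p = 0.166), and its libraries overlapped between groups. LYZ made up nearly all of their summed level, with 1610 to 1700 CPM in siCON and 1746 to 1896 CPM in siDGk libraries. Without it the sum was 5.39, 7.99 and 6.77 CPM in siCON and 5.94, 9.36 and 4.97 CPM in siDGk libraries, and MARCO was at 0 throughout. The myeloid markers other than LYZ were thus low, and their sums overlapped between groups. The macrophage receptor genes CD163 and CSF1R and the integrin gene ITGAM had 0 counts in siDGk libraries, whereas CD14, CD68 and FCER1G had counts in both groups.

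Of 9 T cell markers, 7 were tested. All 7 had a log2 fold change above 0, as did 7450 of the 14476 genes tested. The median of the 7 was 1.14, against 0.02 over all genes tested. CD3E, CD3G and CD5 reached their highest counts, 59, 53 and 94, in siDGk replicate 2. LCK alone was called. This kinase gene rose from 12.3 ± 1.08 to 36.6 ± 3.61 CPM (SD, n = 3), a log2 fold change of 1.57 (SE 0.18, adjusted p = 5.06e-06 in edgeR's test). Summed levels were 21.5, 27.7 and 22.5 CPM in siCON and 54.2, 80.9 and 44.7 CPM in siDGk libraries, and CD8B was at 0. CD3D, at a log2 fold change of 1.14 (SE 0.43, adjusted p = 0.0757), did not overlap between groups but did not pass the test. Without LCK they were 8.44, 14.9 and 11.4 against 19.9, 40.2 and 10 CPM, so that siDGk replicate 3 fell within the siCON range. Of 5 B cell markers, 3 were tested and CD79A was called, with 0, 0 and 7 counts in siCON and 78, 161 and 209 in siDGk libraries. Its log2 fold change of 5.50 (SE 0.93) became 10.22 without siCON replicate 3, and its call was lost with DESeq2's shrinkage (0.25). PAX5 was at 0, and summed levels were 1.44, 2.98 and 3.43 CPM in siCON and 6.81, 11.4 and 14.1 CPM in siDGk libraries. Without CD79A they were 1.44, 2.98 and 2.76 against 2.59, 1.54 and 4.46 CPM and overlapped between groups. Of 6 NK cell markers, only PRF1 was tested and called, at 4.33 ± 0.974 against 69.1 ± 7.29 CPM (SD, n = 3). PRF1 overlaps PALD1 on the opposite strand, and the counting ignored strand, so reads of PALD1 may be among its counts. PRF1 made up nearly all of the summed level, which was 4.7, 3.3 and 5.24 CPM in siCON and 68.7, 63.1 and 77.2 CPM in siDGk libraries. KLRD1 and NCR1 were at 0. Each of these lists thus had a single gene that was called.

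Some leukocyte and vessel transcripts marked single libraries. Under 1 CPM in every siCON library but above a mean of 20 CPM in siDGk libraries were 7 genes, namely SLAMF9, EPHB1 and 5 segments of the T cell receptor delta locus. TRDC, the constant segment, was at 181.5, 1.11 and 0 CPM in siDGk replicates 1, 2 and 3, and TRDJ2 at 3157, 5.6 and 0 CPM. These segments were named after their values were seen. Of 8 endothelial and stellate cell markers, 5 were tested. The median log2 fold change was 2.85, with CDH5 at 2.85 (SE 1.27), PECAM1 at 3.46 (SE 1.27) and VWF at 4.04 (SE 2.40) not called, and 1, PDGFRB, was called lower at a log2 fold change of −1.02 (SE 0.32), a call lost without any 1 library other than siDGk replicate 2 (−1.13 to −0.81 over these fits). Summed levels were 44.6, 41 and 37.9 CPM in siCON and 38.8, 86.4 and 34.2 CPM in siDGk libraries. Without ACTA2, their most abundant gene, they were 12.6, 14.4 and 11.7 against 11.1, 65.1 and 8.28 CPM. The delta locus was thus highest in siDGk replicate 1 and the vessel markers in replicate 2. The split was not complete, since TRDJ1 was at 1395 CPM in siDGk replicate 1 and at 21 CPM in replicate 2. The T cell marker CD2, which was not tested, had 2, 115 and 0 counts in siDGk replicates 1, 2 and 3. VWF, an endothelial marker, was at 1.4, 31.4 and 0 CPM in siDGk replicates 1, 2 and 3. Without siDGk replicate 1 the log2 fold changes of the 3 genes were 10.16, 4.74 and 4.76, and without siDGk replicate 2 they were 10.34, 4.50 and 4.47. The origin of the delta locus and vessel transcripts and their part in the changes of the 3 genes, which were chosen by values of these same libraries, were not tested.

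The labelled cell type was checked on hepatocyte transcripts. All 12 had counts, 11 were tested and 8 were called lower (6.68% over all genes tested), with a median log2 fold change of −1.05. ALB, the albumin gene, fell by 1.58 (SE 0.15), AFP by 1.41 (SE 0.10) and the regulator HNF4A by 0.51 (SE 0.08). SERPINA1, at 0.02 (SE 0.07), was not called. Summed levels were 52941, 47184 and 46202 CPM in siCON and 27468, 23973 and 22548 CPM in siDGk libraries, with ALB the most abundant gene. All 6 libraries were thus rich in hepatocyte RNA, with less of it in siDGk libraries. In bulk RNA, fewer cells of a type and less RNA per cell cannot be told apart, and the part of these shifts in the levels of the 3 genes was not tested.

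Genes with the most similar profiles were found by the Euclidean distance between log2 CPM values over the 6 libraries, each gene centred on its own mean. Nothing about shared function or control follows from them. For LAIR2 the nearest were SPOCK1 (distance 0.559), ACP7 (0.621), VGF (0.716), VAT1L (0.739) and MYEOV (0.801), against a median of 5.62 over all others. VGF, which encodes a secreted neuropeptide precursor, had 2.78, 5.75 and 4.29 CPM in siCON and 55.3, 74.9 and 92.8 CPM in siDGk libraries, with replicate 1 the lowest siDGk library in both genes. SPOCK1, ACP7 and VAT1L had 0 counts in every siCON library, where the log scale depends on the prior count of 2.

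For SLAMF9 the nearest genes were farther away, from TFPI2 (2.84) and EPHB1 (3.16) to IGFBP5 (3.26), HTN1 (3.31) and SIDT1 (3.36), with a median of 9.75 over all others. TFPI2, which encodes a secreted inhibitor of serine proteases, had 0 counts in the siCON libraries and 117, 72 and 151 in siDGk libraries, lowest in replicate 2 as SLAMF9 was. IGFBP5, an insulin-like growth factor binding protein gene, went from 1.14 ± 0.537 to 53.8 ± 7.36 CPM (SD, n = 3). The promoters of HTN1 and TFPI2 held the AP-1 motif, and those of the other 3 did not.

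For LINC01173 they were CTSE (2.38), LINC00659 (2.8), AL365203.1 (2.86), IGFL4 (2.97) and IGFBP5 (3.06), with a median of 7.33 over all others. CTSE, the cathepsin E gene, had 19, 35 and 1 counts in siCON and 145, 177 and 288 in siDGk libraries. LINC00659 had 28, 43 and 0 counts in siCON, and AL365203.1 had 27, 48 and 0. IGFL4 had 5, 11 and 0. Like LINC01173 these 4 were lowest in siCON replicate 3, so the likeness rests in part on that library. The AP-1 motif stood in 0 of the 4 promoters available for this group and in 0 of 3 for the group of LAIR2. The nearest genes of SLAMF9 and LINC01173 overlapped in IGFBP5 alone, and those of LAIR2 were shared with neither. None of the 3 was among the nearest genes of another.

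**Figure D4:**
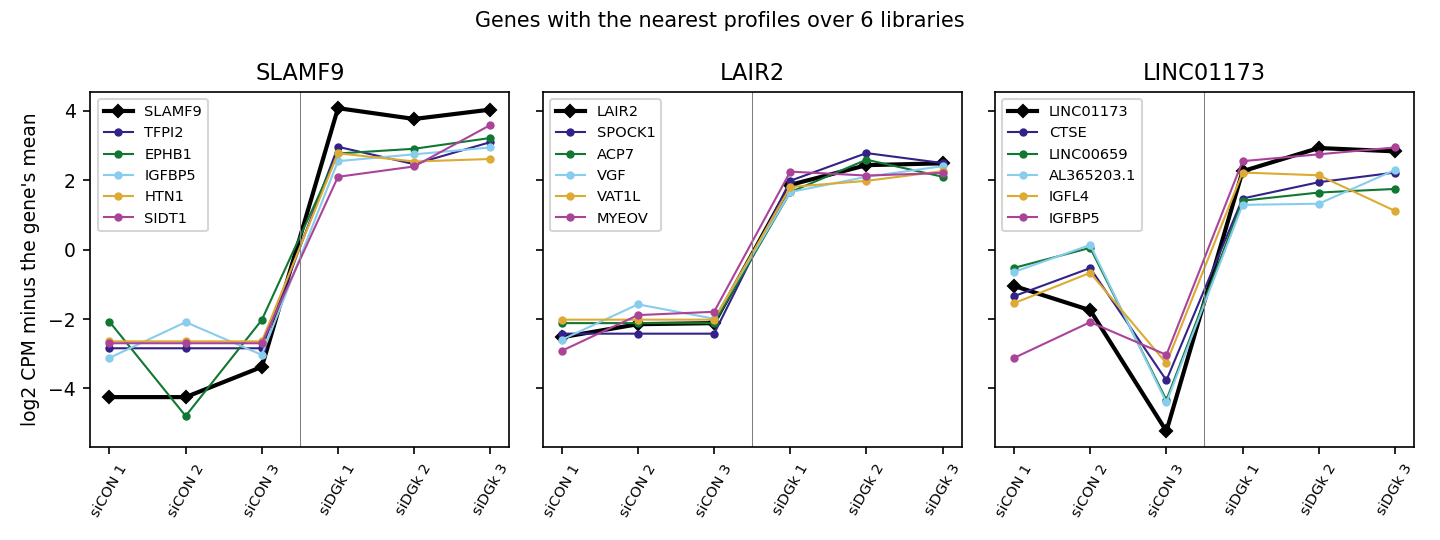
Log2 CPM of SLAMF9, LAIR2 and LINC01173 (black) and of the 5 nearest genes of each over 6 libraries, minus each gene's own mean. The genes near LAIR2 lie almost on its line, those near SLAMF9 span a smaller range than it does, and those near LINC01173 include 4 that drop with it in siCON replicate 3.

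The size of the fitted change depended on the way of fitting, most for LINC01173 and SLAMF9. LAIR2, with counts in every library, stayed between 4.45 and 4.74 when 1 library was left out and at 4.08 with DESeq2's shrinkage. LINC01173 ranged from 4.15 without siCON replicate 3 to 5.30 without siCON replicate 1, and SLAMF9 from 9.67 without siCON replicate 2 to 12.33 without siCON replicate 3. The direction was the same in each of these fits.

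**Figure D5:**
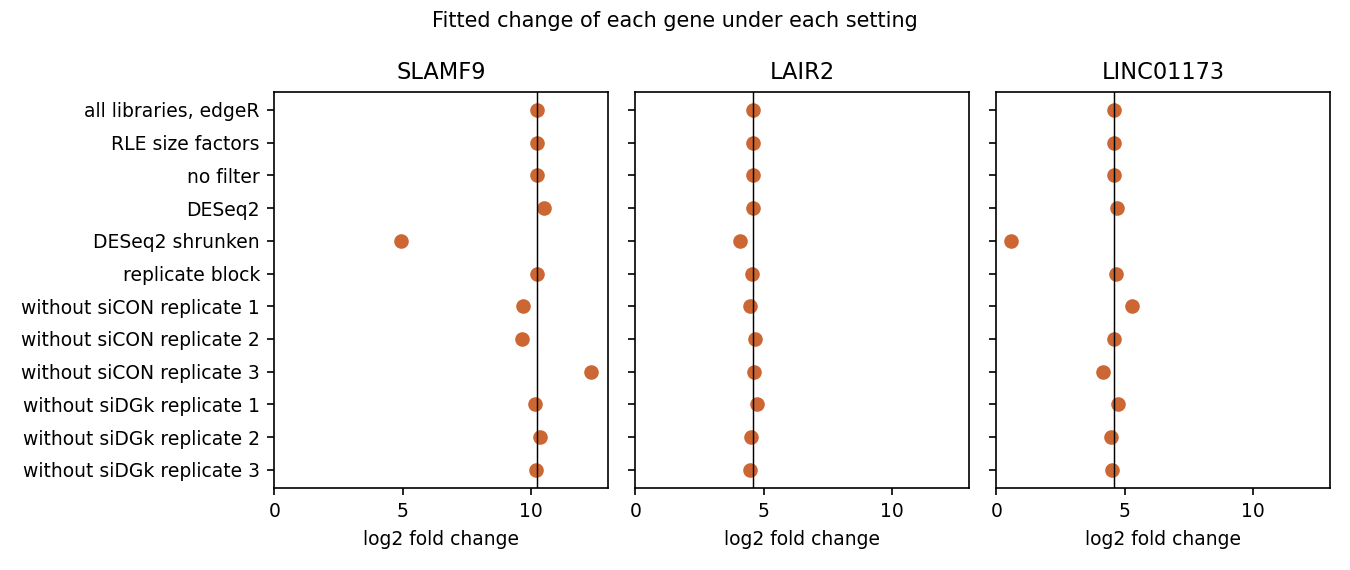
Log2 fold change of SLAMF9, LAIR2 and LINC01173 (x axis) under each way of fitting (y axis); the line marks the value from all 6 libraries in edgeR. DESeq2's shrunken values, 4.93, 4.08 and 0.58, lie lowest for each gene.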

How the data were processed

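The data are the whole-number counts per gene that the authors deposited for 6 libraries. By their description, paired-end reads were cleared of structural RNA, adapters and spike-ins, mapped with STAR 2.6.1 to GRCh38 and Gencode 27, filtered for low complexity with PRINSEQ Lite 0.20.3, and assigned with featureCounts 1.6.5. Its default settings ignore strand and drop reads with several placements, which lowers counts of close gene copies.

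In R 4.3.3, edgeR 4.0.16 was used with filterByExpr (minimum count 10), TMM, a robust quasi-likelihood fit of group, and Benjamini-Hochberg adjustment over all 14476 genes tested. SEs were obtained by dividing the absolute fitted change by the root of the F value. Library sizes were kept after filtering and the dispersion trend was estimated without robust weights, both chosen after a first fit, to give the same number of calls as an earlier analysis of these data. The script was tested on simulated data. CPM use TMM-scaled library sizes. Replicates of a group differed beyond the sampling of reads, with 10.8 to 24.8 as the chi-square divided by its degrees of freedom, and each was counted once. Ratios of summed counts have exact (Clopper-Pearson) intervals at 95%, and 3 counts per library were taken as the floor.

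Spans, exon lengths and transcripts came from Gencode 44 on GRCh38 and promoters from RefSeq. Named are the 3 genes, DGUOK, listed genes that were called or serve a marker check, neighbours that were called or nearest among those tested, the 5 most similar profiles per gene, and the leading off-to-on and mirror genes. Other genes, among them the T cell receptor segments, were named after their values were seen, and the limit of 20 CPM was set then. One result is not reported here. The 3 genes and the lists were chosen with earlier results of these data known. DESeq2's shrunken values came from its shrinkage with a normal prior. Alternatives were RLE scaling, no filter, DESeq2 1.42.0 with and without shrinkage, no fold change limit, a window of 100 kb, limits of 0.5 and 2 CPM for off-to-on, a replicate block, and each library left out. For single named genes other than SLAMF9, LAIR2 and LINC01173, and for each gene's own neighbours, these were added after seeing the data.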

Additional observations from a re-analysis of the deposited data

How the results depend on the processing

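In the fits run, SLAMF9, LAIR2 and LINC01173 stayed higher in siDGk libraries, but DESeq2's shrunken fold changes moved them to 4.93, 4.08 and 0.58. With 1 library left out, SLAMF9 ranged from 9.67 to 12.33, LAIR2 from 4.45 to 4.74 and LINC01173 from 4.15 to 5.30. The number of genes called was 2041, and between 1704 and 1935 with 1 library left out, 1853 with shrunken and 2133 with unshrunken DESeq2 values, 2172 without the filter and 2847 without a fold change limit. The replicate block gave 2077 calls; replicates of the same number did not deviate together (correlations across genes 0.024, 0.0166 and −0.00224), and those numbered 3 did not correlate best with each other. Called LAIR ligands rose from 6 to 11 without the filter, and ranged from 6 to 12 with 1 library left out. Neighbours called went from 6 to 10 without a fold change limit, of which the added ones have small changes by construction, to 3 within 100 kb, and from 4 to 7 with 1 library left out. FYN and LILRA2 were called in each alternative run. Off-to-on genes numbered 115, but 12 at under 0.5 against at least 2 CPM (3 in the mirror direction, where the main count was 56) and from 155 to 226 (mirror 82 to 114) with 1 library left out, where fewer libraries must meet the limits. Other calls lost were CD79A (0.25), ADRA1D (0.28), HABP2 (−0.30), F13B (−0.22) and MBOAT7 (−0.47) with shrunken values, and F13B also with unshrunken DESeq2 values (−4.94). The calls of LINC00659 (2.40 in the main fit), AL365203.1 (2.49) and IGFL4 (3.71) were lost with folds of about the same size: LINC00659 without siCON replicate 1 (2.5) or siDGk replicate 1 (2.48) or 3 (2.31), AL365203.1 without siCON replicate 1 (2.52) or siDGk replicate 3 (2.08) and with the replicate block (2.70), and IGFL4 without siDGk replicate 1 (3.53); where no other reason is given, the cause was not tested. Depth limits what can be said of SLAMF9 in siCON libraries, where 1 count in all leaves its ratio uncertain.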

Other observations

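LINC01173 was 1 of 38 genes with 0 counts in siCON replicate 3 and at least 20 counts in both other siCON libraries. Such genes numbered 8 for siCON replicate 1 and 15 for siCON replicate 2. In the siDGk group they numbered 2, 56 and 139 for replicates 1, 2 and 3, although siDGk replicate 3 had the highest total. It also had the fewest genes with a count, 16205, against 21057 in siDGk replicate 1. SLAMF9, LAIR2 and LINC01173 had 778, 3491 and 667 counts in siDGk replicate 3.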
